A study of Mus musculus with 4 samples.

Results

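N6-methyladenosine (m6A) is a methyl mark that a nuclear enzyme complex writes on messenger RNA. Reader proteins bind RNA that carries the mark or whose fold it opens, and eraser enzymes remove it. The genes described are the 10 readers and erasers Ythdf1, Ythdf2, Ythdf3, Ythdc1, Ythdc2, Igf2bp2, Hnrnpa2b1, Hnrnpc, Fto and Alkbh5, chosen by name from the 22481 gene symbols of the deposited table. All 10 were found there, each as a single row, and all passed the filter on low counts together with 12789 genes in all. RNA was measured in islets isolated from the pancreas of 129sv mice aged 2 weeks, with 2 libraries from mice labelled Ngn3Mettls KO (KO) and 2 from wild-type mice (WT). Each library pooled more than 400 islets. Ngn3, also called Neurog3, is a gene of endocrine progenitors of the pancreas, and Mettl3 and Mettl14 encode the catalytic core and its partner in the m6A writer. The labels name neither the deleted exons nor the driver of the deletion. Islets also contain vessel, duct, immune and connective tissue cells, which the deletion need not reach. Whether the pools of a group come from different mice is not stated, so p-values measure only the spread between these pools, which may be technical.

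In the cytoplasm, the YTHDF proteins bind m6A through a YTH domain and are tied to decay and translation of the bound messenger. Ythdc1 is the nuclear YTH protein and takes part in splicing and export, and Ythdc2 is a helicase with a YTH domain known for its part in meiosis. Igf2bp2 stabilises its target messengers, while Hnrnpa2b1 and Hnrnpc are abundant nuclear RNA-binding proteins of splicing. Fto and Alkbh5 are dioxygenases that remove the methyl group. In mouse islets loss of the writer is studied because the mark bears on maturation of insulin-producing beta cells, and the KO against WT comparison shows whether transcripts of its readers and erasers differ when the writer is the target.

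The 3 YTHDF genes are paralogs, so reads of one could be counted for another if their sequences were alike over the length of a read. Their longest coding sequences in the GENCODE M21 annotation (GRCm38, the same build as mm10) were 1758 bases for Ythdf1, 1737 for Ythdf2 and 1788 for Ythdf3. Aligned in pairs they were 70.4% to 71.9% identical. The stretch of 150 bases, the read length of the study, that was most alike in all 3 lies in the part that encodes the YTH domain. It is shown here because it is where the paralogs would be hardest to tell apart. Capitals mark the 44 positions at which the 3 genes are not all the same, and the other 106 are shared (5′ to 3′, coding strand).
Ythdf1: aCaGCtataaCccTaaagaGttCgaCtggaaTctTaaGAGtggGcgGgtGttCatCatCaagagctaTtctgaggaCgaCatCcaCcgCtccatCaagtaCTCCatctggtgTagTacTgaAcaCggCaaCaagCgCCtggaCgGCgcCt
Ythdf2: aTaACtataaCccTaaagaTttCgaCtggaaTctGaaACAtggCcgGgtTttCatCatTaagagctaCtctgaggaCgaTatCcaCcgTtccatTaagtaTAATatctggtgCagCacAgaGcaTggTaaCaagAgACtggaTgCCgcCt
Ythdf3: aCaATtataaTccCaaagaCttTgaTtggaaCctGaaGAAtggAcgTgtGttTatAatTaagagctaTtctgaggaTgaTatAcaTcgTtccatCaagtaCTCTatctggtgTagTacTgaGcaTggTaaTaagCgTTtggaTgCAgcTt
Any pair of these stretches differed at 28 to 32 bases, and the longest run shared by a pair over the coding sequence was 22 bases, between Ythdf1 and Ythdf2. No 150-base word of a YTHDF transcript occurred in a transcript of another gene. At 50 bases this held for Ythdf1 and Ythdf3, whereas 7.49% of the words of Ythdf2 also occurred in the annotated genes Gm6823 and Gm8401. Of the other readers and erasers, Ythdc1 shared 3.56% of its 150-base words with Gm43055, whose exons overlap its own over 631 bases on the same strand, and with Ndrg3, and Hnrnpc shared 0.818% with Gm12696. The remaining 5 shared none at that length. At 50 bases Hnrnpc shared 8.28% of its words and Ythdc1 5.87%. Ythdc2 shared 0.702%, Hnrnpa2b1 0.591%, Alkbh5 0.152% and Fto 0.0307% at that length, and Igf2bp2 none. Values of Ythdc1, Hnrnpc and Ythdf2 are therefore less certain than those of the other genes, since the sources used here give no counting options.

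The 10 genes lie on 10 different chromosomes. In GRCm38 coordinates Ythdf2 spans chromosome 4 from 132184912 to 132212303 and Hnrnpa2b1 chromosome 6 from 51460932 to 51469894, both on the minus strand. Ythdc1 lies on chromosome 5 from 86804221 to 86836659 on the plus strand. Fto is the longest at 354915 bases, on chromosome 8 from 91313525 to 91668439, and 448 of its exonic bases are overlapped by genes of the opposite strand. As a sequence feature, the 5-base word GGACT, a form of the sequence in which m6A is most often written, was counted on the coding strand. It occurred once in the coding sequence of Ythdf1, Ythdf3, Hnrnpc and Fto, and not at all in that of Ythdc1 or Hnrnpa2b1. Its density ran up to 1.69 per kilobase in both Igf2bp2 and Alkbh5. Over 21177 coding genes the median density was 1.05 per kilobase and 73.4% held at least 1 such word. This counts letters in the coding sequence only and shows no methylation.

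Below, a pair of values is always in the order replicate 1, replicate 2. The KO libraries held 5132726 and 4057724 fragments and the WT libraries 5232258 and 4347110, once the authors' scaling of the libraries was divided out. Each reader or eraser rested on at least 162 fragments in every library (Ythdc2 in KO replicate 2), and on up to 3535 (Hnrnpa2b1 in WT replicate 1). Islet markers were high in every library, in CPM (counts scaled to a fixed library total after TMM normalisation). The 10 beta cell genes summed to 45055 and 46598 CPM in KO against 63713 and 47029 CPM in WT, highest in WT replicate 1. The 6 alpha cell genes summed to 48113 and 60685 CPM in KO against 42004 and 44155 CPM in WT. So the beta cell sum was lower in both KO libraries, by a small step from WT replicate 2, and the alpha cell sum higher. Of the alpha cell genes 5 had positive and 1 a negative log2 fold change. Of the beta cell genes 2 had positive and 8 negative log2 fold changes, with Iapp at 0.52 and Slc30a8 at 0.24. Mafa and Nkx6-1, transcription factors of beta cells, were called lower in KO (log2 fold changes -3.52 and -0.90, edgeR adjusted p = 0.0341 and 0.0411), and Ppy, the pancreatic polypeptide hormone, was called higher (1.37, edgeR adjusted p = 0.0348), while limma on log2(FPKM + 1) called none of them. Of the 5 delta, PP and epsilon cell genes that include Ppy, 4 were positive and Sst, the somatostatin gene of delta cells, was at -0.38. The part of these shifts in the results below was not tested. Acinar genes summed to 3297 to 7465 CPM with overlapping groups. The sums of 9 tested immune cell genes were 216.7 and 139.7 CPM in KO against 139.6 and 77.4 CPM in WT, with all 9 higher in KO by the mean, and their part in the results below was not tested. No marker on the 12 lists was at 0 in all 4 libraries. In these bulk samples, a change in the share of cells of a type and a change in RNA per cell cannot be told apart.

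Of the genes that the knockout name points to, Mettl14 measured 14.1 and 15.6 CPM (KO) against 21.4 and 21.8 CPM (WT). These groups did not overlap, and the difference did not pass the test (log2 fold change KO minus WT -0.54 ± 0.22 SE, edgeR adjusted p = 0.369). Mettl3 measured 18.6 and 17.2 CPM (KO) against 29.3 and 17.1 CPM (WT) (-0.38 ± 0.28 SE, edgeR adjusted p = 0.634), and its sign turned without WT replicate 1 (0.051). A count of the whole gene cannot show whether some exons were removed.

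Islets of both genotypes held transcripts of every reader and eraser, at levels that fell into 5 tiers in FPKM but not per length of annotated exon. The first scale is FPKM, fragments per transcript length and library total as the authors deposited it, which allows levels of different genes to be set side by side. Hnrnpa2b1 was far above the rest, at 179 and 196.4 FPKM in KO and 228 and 233 FPKM in WT. Hnrnpc followed at 42.4 and 43.6 FPKM in KO and 45.1 and 49.9 FPKM in WT, its range clear of both neighbours. Ythdf3, Ythdc1, Alkbh5 and Fto formed a tier with means of 33.3, 32.7, 32.6 and 30.7 FPKM, and each overlapped the next in range over the 4 libraries. Ythdf1, Igf2bp2 and Ythdf2 came next, with means of 24.8, 22.6 and 20.1 FPKM, and their ranges overlapped as well. Ythdc2, the YTH helicase, was lowest, at 4.46 and 5.25 FPKM in KO and 4.40 and 5.73 FPKM in WT. Among genes with a mean of at least 1 FPKM, Hnrnpa2b1 stood at percentile 98.9 and Ythdc2 at percentile 25.7, and the other 8 between 70.0 and 89.5. Between these ends the order and the tiers depended on the length used. With CPM per kilobase of annotated exon 2 of 10 genes, Hnrnpa2b1 and Ythdc2, stayed at their rank. On that scale Hnrnpc (34.6) came after Ythdf3 (38.2) and Alkbh5 (37.6), and Ythdc1 (12.3) and Fto (10.6) came after Ythdf1 (27.8) and Ythdf2 (16.8).

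**Figure D1:**
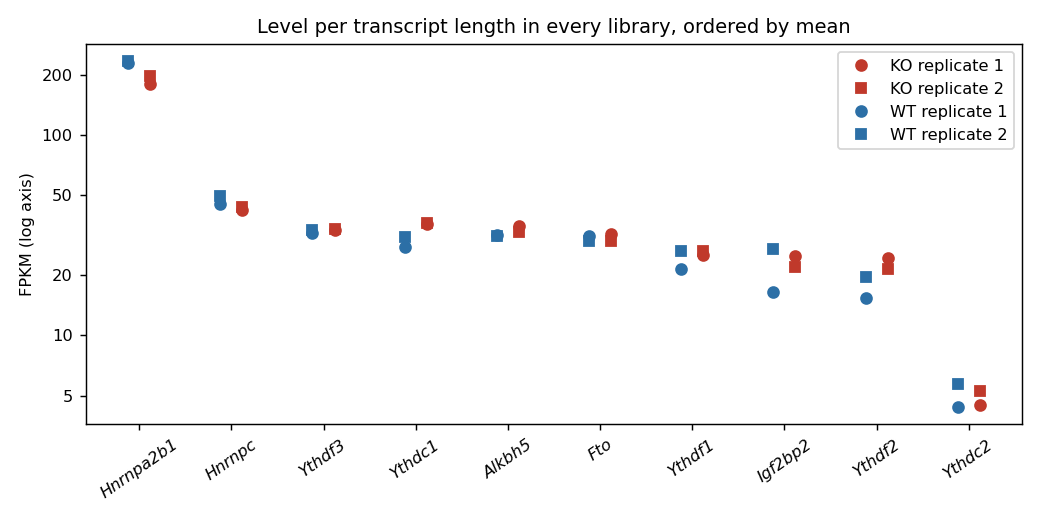
FPKM of the 10 genes in each library on a log axis, ordered by the mean over 4 libraries, with KO in red, WT in blue, circles for replicate 1 and squares for replicate 2. Hnrnpa2b1 lies between 179 and 233 FPKM and Ythdc2 between 4.40 and 5.73 FPKM.

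No reader or eraser passed the test between genotypes. With edgeR's quasi-likelihood test, adjusted over all genes tested, 0 of 10 were called against 0.227% of all genes (29 of 12789). DESeq2 also called 0 of the 10, against 1.49% of genes, and limma on log2(FPKM + 1) called 0 of all genes. At an unadjusted p under 0.05 edgeR had 1 of 10, Ythdf2, which was higher in KO, against 12.6% of all genes (6.51% higher and 6.04% lower), while DESeq2 had 0 of 10 against 7.38% of genes and limma 1 of 10, Hnrnpa2b1, against 10.9%. By the mean 7 were higher and 3 lower in KO, with a median log2 fold change of 0.080 beside 0.0046 over all genes tested. In CPM after TMM scaling the groups did not overlap for 6 of 10 genes, 4 higher and 2 lower in KO, where 45.0% of all genes had groups without overlap, 22.7% higher and 22.3% lower. With DESeq2's size factors 2 were higher and 2 lower without overlap, because Ythdc1 and Fto then overlapped. The share of all genes without overlap was counted with TMM scaling only.

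**Figure D2:**
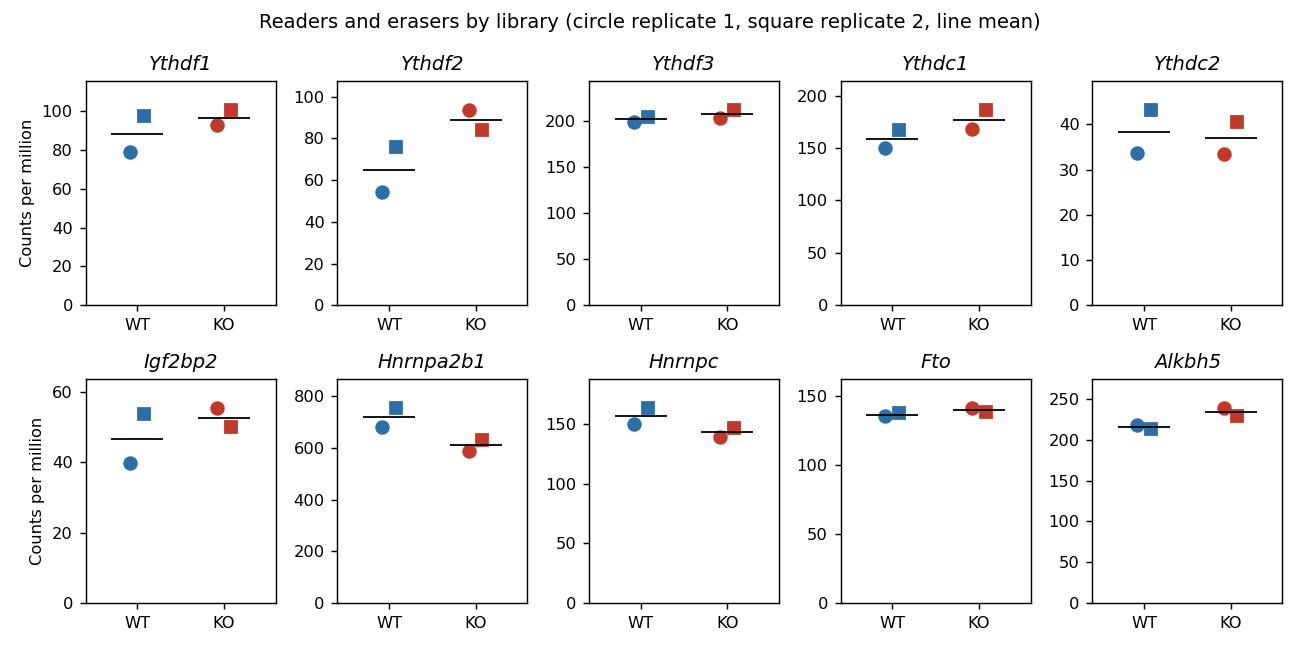
CPM of each gene after TMM scaling in the 4 libraries, with WT in blue, KO in red, circles for replicate 1, squares for replicate 2 and a line at the mean of n = 2 libraries; each axis starts at 0 and has its own scale. For Ythdf2 both KO libraries lie above both WT libraries, and for Hnrnpa2b1 both lie below.

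Among the cytoplasmic YTHDF readers, Ythdf2, which recruits the deadenylase that starts decay of its targets, had the largest log2 fold change of the 10 genes with all 4 libraries. Without WT replicate 1 those of Hnrnpa2b1 (-0.32) and Ythdc2 (-0.23) were larger in size. It measured 93.5 and 83.8 CPM (KO) against 54.4 and 75.7 CPM (WT). Both KO libraries were above both WT libraries, and the WT libraries stood further apart from each other than the KO libraries. The means were 88.7 ± 6.82 CPM in KO and 65.1 ± 15.1 CPM in WT (SD, n = 2 each; log2 fold change 0.45 ± 0.18 SE, 95% interval 0.037 to 0.86, edgeR adjusted p = 0.356). Without WT replicate 1 the log2 fold change was 0.22, and without WT replicate 2 it was 0.70 (edgeR adjusted p = 0.0885). The direction held in all 13 alternative settings. These reuse the same libraries, and with the groups apart, leaving out a library could hardly turn the sign, so the held direction adds no support.

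Ythdf1, linked to translation of m6A messengers, measured 92.6 and 100.3 CPM (KO) against 79.0 and 97.3 CPM (WT). The groups overlapped (0.13 ± 0.14 SE, edgeR adjusted p = 0.754), and its sign turned without WT replicate 1 (-0.022). Ythdf3, thought to work together with the other two, measured 203.7 and 212.0 CPM (KO) against 199.2 and 204.9 CPM (WT). Here the groups overlapped and the libraries lay close together (0.041 ± 0.11 SE, edgeR adjusted p = 0.916). Its 95% interval, -0.21 to 0.29, ends at a rise of 1.22-fold and a fall to 0.867 of the WT level. It reflects only the spread between these pools, not between mice.

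The split of the YTHDF sum among its members was also compared, in FPKM. Ythdf2 made up 29.3% and 26.2% of the sum in KO and 22.1% and 24.6% in WT, a difference of 4.36 percentage points. Ythdf3 made up 40.4% and 41.4% in KO and 46.7% and 42.3% in WT, a difference of -3.59 points. For both genes the groups did not overlap, and the exact permutation test over libraries gave a two-sided p of 0.333, the smallest that 2 against 2 libraries allow. The shares are parts of the same sum, so a rise in any gene lowers the shares of the others. Ythdf3 itself measured 33.4 and 33.8 FPKM in KO and 32.2 and 33.6 FPKM in WT, so its lower share does not show a fall in its own level. The share of Ythdf1 overlapped (31.4% ± 1.48 in KO and 32.1% ± 1.41 in WT, SD, n = 2 each; exact p = 0.667). Shares taken from estimated counts differed by 4.37 points for Ythdf2 and -4.16 for Ythdf3, also with groups apart. The summed level of the 3 genes was 82.6 and 81.6 FPKM in KO and 69.0 and 79.6 FPKM in WT.

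Ythdc1, the nuclear reader, measured 168.2 and 186.1 CPM (KO) against 150.6 and 167.7 CPM (WT). The groups were apart only by the small step between KO replicate 1 and WT replicate 2 (0.15 ± 0.12 SE, edgeR adjusted p = 0.640). In FPKM the gap was wider, at 36.0 and 36.3 in KO and 27.7 and 30.9 in WT, and on log2(FPKM + 1) the log2 fold change was 0.30 (limma adjusted p = 0.482). The helicase gene Ythdc2 measured 33.6 and 40.6 CPM (KO) against 33.6 and 43.1 CPM (WT). Replicates 2 were the higher library in each genotype, and the groups overlapped (-0.050 ± 0.19 SE, edgeR adjusted p = 0.948). Its sign turned without KO replicate 1 (0.068) and without WT replicate 2 (0.14).

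FPKM and estimated counts did not keep a fixed ratio for Ythdc1. The FPKM per estimated count moves with the transcript length that the authors' estimate assigned to a gene. This read-out was added after the data were seen. Relative to the WT mean, Ythdc1 stood at 115.2% and 108.1% in KO and 100.5% and 99.5% in WT, so a count was worth more FPKM in both KO libraries. Of 7526 genes with a mean count of at least 100, 11.0% had KO libraries above WT libraries without overlap and 43.5% had them below. A share of 4.61% had them above with a KO mean at least as high as that of Ythdc1 (111.7%). The median of the 7526 genes was 99.7% and 99.98% in KO and 99.98% and 100.02% in WT. A gene could thus count as below by less than 1%, as Hnrnpc did (99.6% and 99.96% in KO, 99.99% and 100.01% in WT). For Ythdf3, Ythdc2, Hnrnpc and Alkbh5 the ratio was fixed within 1% over all libraries, as for 30.6% of the 7526 genes. In Igf2bp2 it varied most within a group, from 91.1% to 108.9% between the WT libraries. No transcripts were tested one by one, and whether other isoforms or reads of the overlapping Gm43055 move with the ratio of Ythdc1 was not tested.

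**Figure D3:**
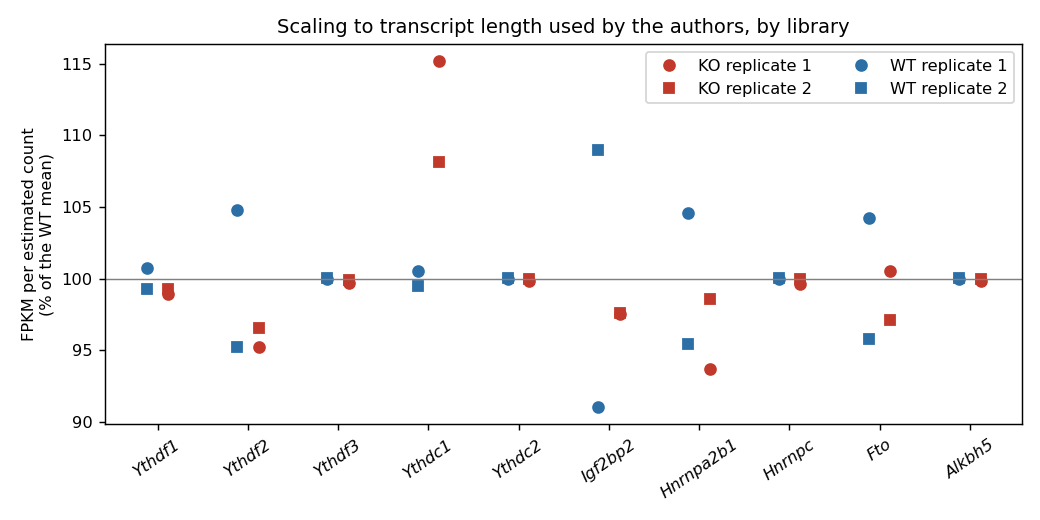
FPKM per estimated count in each library as a percentage of the WT mean of the same gene, with KO in red, WT in blue, circles for replicate 1 and squares for replicate 2. Ythdc1 has both KO libraries above 108%, and Igf2bp2 has the widest spread between its WT libraries.

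Igf2bp2, which protects its targets from decay, measured 55.5 and 49.96 CPM (KO) against 39.8 and 53.7 CPM (WT). WT replicate 1 was the low library and the groups overlapped (0.17 ± 0.18 SE, edgeR adjusted p = 0.741). Without WT replicate 1 the sign turned (-0.036), and without WT replicate 2 the value was 0.40. Its relatives were low, with Igf2bp3 at 2.74 and 1.95 CPM (KO) against 7.07 and 0.211 CPM (WT), and Igf2bp1 below the filter on low counts.

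The nuclear hnRNP genes Hnrnpa2b1 and Hnrnpc had lower values in KO, opposite to most of the YTH genes. Hnrnpa2b1 measured 588 and 631 CPM (KO) against 682 and 755 CPM (WT). Both KO libraries were below both WT libraries, and the difference did not pass (-0.24 ± 0.12 SE, 95% interval -0.51 to 0.039, edgeR adjusted p = 0.462). Limma on log2(FPKM + 1) gave -0.30 with an adjusted p of 0.456. Hnrnpc measured 138.9 and 146.6 CPM (KO) against 149.5 and 163.3 CPM (WT), again without overlap (-0.13 ± 0.11 SE, edgeR adjusted p = 0.679). Both genes had groups without overlap under TMM, DESeq2's size factors, library totals and FPKM, and both kept their negative sign in all 13 alternative settings. With the groups apart, leaving out a library could hardly turn the sign, and the other settings reuse the same libraries. The held sign therefore adds no support.

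The erasers varied little between libraries. Alkbh5 measured 239.3 and 229.6 CPM (KO) against 218.2 and 213.4 CPM (WT). Its groups did not overlap, and the difference of 0.12 ± 0.10 SE did not pass (95% interval -0.12 to 0.36, edgeR adjusted p = 0.692). Fto measured 141.6 and 138.6 CPM (KO) against 135.8 and 137.7 CPM (WT). In CPM after TMM scaling the KO libraries were above the WT libraries by a small step (0.035 ± 0.11 SE, edgeR adjusted p = 0.933). The groups overlapped with DESeq2's size factors, with library totals and in FPKM, where KO replicate 2 was the lowest of the 4 libraries. The 95% interval of -0.21 to 0.28 ends at a rise of 1.22-fold and a fall to 0.862 of the WT level. It too reflects only the spread between these pools.

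**Figure D4:**
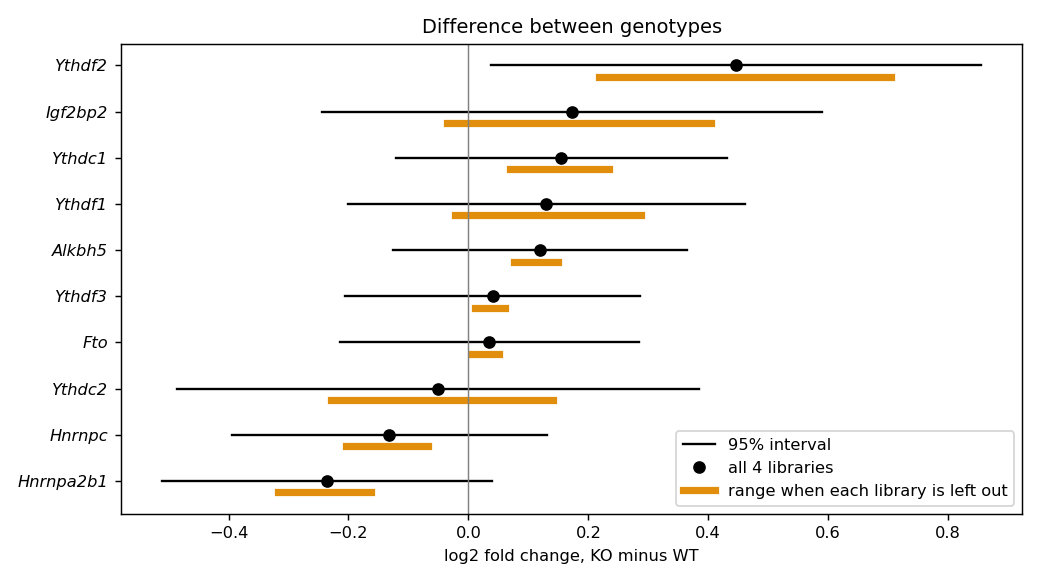
Log2 fold change, KO minus WT, of each gene from edgeR (point) with its 95% interval (black line) and the range when each library was left out in turn (orange bar). The intervals are not adjusted for the number of genes tested. That of Ythdf2, 0.037 to 0.86, lies above 0, but the gene did not pass the test (edgeR adjusted p = 0.356). The orange bars of Ythdf1, Ythdc2 and Igf2bp2 cross 0.

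WT replicate 1 stood low for many of these genes. It was the lowest of the 4 libraries in CPM for 6 of the 10 genes, Ythdf1, Ythdf2, Ythdf3, Ythdc1, Igf2bp2 and Fto, and the highest for none. Over all genes tested it was lowest for 27.1% and highest for 26.9%. Without it the median log2 fold change of the 10 genes was -0.0056, against 0.12 without WT replicate 2. WT replicate 1 also held the highest sums of beta cell, acinar, mesenchymal and proliferation markers. Its sums of alpha cell, ductal, and Schwann and neural markers were the lowest. The mesenchymal genes summed to 1656 CPM there, against 672 CPM in WT replicate 2 and 956 and 842 CPM in KO. The part of these sums in the results was not tested.

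Other genes of the pathway did not pass either. On the 7 pathway lists 0 genes were called with edgeR, DESeq2 or limma. Of 13 genes of the writer complex and of other methyltransferases, which include Mettl5, Mettl16, Zcchc4 and Pcif1, 8 had groups without overlap higher in KO (22.7% of all genes) and 1, Mettl14, lower (22.3% of all genes), with a median of 0.24. Wtap, which anchors the writer in nuclear speckles, was at 0.28 and Rbm15b, an RNA-binding adaptor of the complex, at -0.065. At an unadjusted p under 0.05 edgeR had 2 genes of that list higher and 1 lower, where all genes had 6.51% higher and 6.04% lower. Of 26 other proposed readers and hnRNP genes 9 had a positive and 17 a negative value (median -0.058), with Hnrnpk at -0.039 and Hnrnph1 at -0.061, and 1 was higher and 4 were lower at an unadjusted p under 0.05, against the same 6.51% and 6.04%. Among 9 dioxygenase genes, the AlkB family with Fto, 6 had positive values (median 0.065). Of 20 tested genes of the CCR4-NOT deadenylase and its decay partners 10 were positive and 10 negative (median -0.019), with Cnot6l, a deadenylase subunit, at 0.26 and the decay helicase gene Ddx6 at -0.065. Of 9 export and splicing partners of Ythdc1 3 were positive (median -0.011), with Srsf1 at -0.13 and Srsf3 at -0.011. The YTH family as a whole had 4 of 5 positive values (median 0.13).

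**Figure D5:**
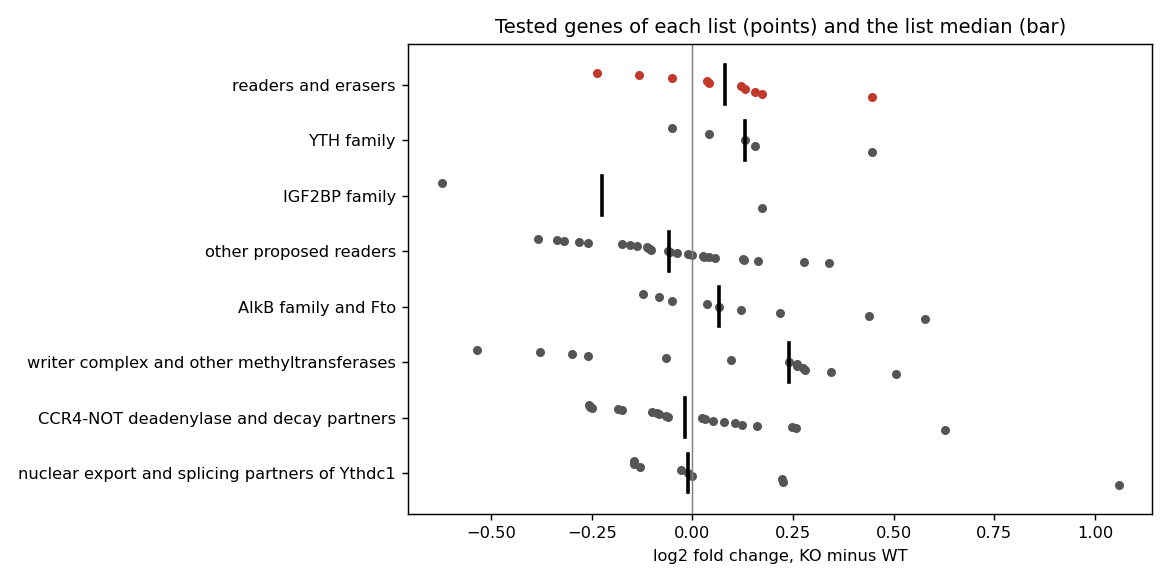
Log2 fold change, KO minus WT, of every tested gene (points) in the 10 readers and erasers and in 7 pathway lists, with a bar at each median. The list of the writer complex and other methyltransferases has the highest median, 0.24, and the IGF2BP list has 2 tested genes.

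Many genes shared the pattern of Ythdf2 over the 4 libraries. After each gene was centred on its own mean of log2(FPKM + 1), the closest were Kcnh6, Exoc7 and BC017158, with root mean square differences of 0.020, 0.029 and 0.033 from Ythdf2. Of 9290 genes compared, with a mean of at least 5 FPKM, 227 lay within 0.1, so closeness over 4 libraries singles out no gene.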

How the data were processed

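RNA was sequenced from 4 islet pools after removal of ribosomal RNA, with strand-specific libraries and 150-base paired ends, per the labels' protocols. Per the submitters' processing notes the build was mm10, and Cufflinks, Cuffdiff, HISAT2 2.0.4 and cutadapt 1.9.3 were used. Per the file headers, the authors deposited FPKM values and estimated counts, 1 of each per gene row and library. The deposited counts are estimated counts scaled per library: 95.4% to 95.8% of values below 20 steps came within 0.1 of a whole number after division by the step of their library (0.901 to 1.15), and fractional values can reflect shared reads. Rows with the same symbol (79 symbols) were summed, counts rounded, filtered with filterByExpr and scaled with TMM, and genotype was tested two-sided by quasi-likelihood in edgeR 4.0.16 (R 4.3.3), with Benjamini-Hochberg adjustment over all genes tested and calls under 0.05. DESeq2 1.42.0 and limma 3.58.1 were alternatives. Counting noise and the spread between pools limit the precision, with a common biological coefficient of variation of 16.0%. Genes and lists were chosen with earlier results of these data known. Named by rule beyond the 10 genes are Mettl3 and Mettl14, and of each pathway list the called members or at most the 2 with the highest mean FPKM. The 3 genes closest to the member with the largest log2 fold change are also named by rule. Igf2bp1, Igf2bp3, the 3 called cell type markers, Iapp, Slc30a8 and Sst were named after their values were seen. Mettl5, Mettl16, Zcchc4 and Pcif1 are named only to describe their list, and other genes only for sequence shared with the 10.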

Additional observations from a re-analysis of the deposited data

How the results depend on the processing

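No reader or eraser and no gene of the 7 pathway lists was called in any of the 13 alternative settings (other scalings, no filter, DESeq2, limma on FPKM, the library scaling undone, a replicate block and each library left out). The sign of Ythdf2, Ythdf3, Ythdc1, Hnrnpa2b1, Hnrnpc, Fto and Alkbh5 held in all 13. All settings reuse the same libraries. Apart from Ythdf3, these genes had groups without overlap in CPM after TMM scaling, so leaving out a library could hardly turn their sign. With 1 library left out, the lone library of its group being assumed to vary like the others, log2 fold changes ran from -0.022 to 0.29 for Ythdf1, -0.23 to 0.14 for Ythdc2, -0.036 to 0.40 for Igf2bp2 and -0.71 to 0.051 for Mettl3, and the median of the 10 genes from -0.00562 to 0.12. Over all genes the 29 calls (17 higher, 12 lower) became 154 with DESeq2 (84 higher, 70 lower), 0 with the 3 limma fits (0 higher, 0 lower; 1367 genes at an unadjusted p under 0.05 for log2(FPKM + 1)) and 13 to 165 with a library left out (7 to 83 higher, 6 to 82 lower). The labels do not state whether KO and WT libraries with the same replicate number were paired or handled together. Across 12789 genes the replicate differences of KO and WT correlated at 0.19. With a replicate block 214 genes were called (115 higher, 99 lower), none of the 10 among them. The cause of these changes was not tested. With 2 libraries a group, intervals of the 10 genes span between 0.49 and 0.87 on the log2 scale, so small differences were not detectable.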
